A study of Mus musculus with 5 samples.

Results

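The cells described here are the cycling cells of one mouse bone marrow population, the lymphoid-primed multipotent progenitor (LMPP), which gives rise to lymphoid and myeloid cells. They were picked from 1 droplet library of single-cell RNA as the cells with at least 3 UMIs (unique molecules counted) of Mki67, fewer than 3 of Dntt and fewer than 2 of Il7r and Ebf1 together. Of 8116 deposited LMPP barcodes, 8033 had at least 500 genes, at least 1000 UMIs and at most 10% mitochondrial UMIs, and 1714 of these met the rule, 21.3% (95% exact Clopper-Pearson interval 20.4 to 22.2). The comparison cells are the 2270 LMPP cells that met the same Dntt, Il7r and Ebf1 limits and had no UMI of Mki67 or Top2a. A further 3067 cells met the limits and lay between, so that 7051 met them in all, and the series holds 42104 filtered cells.

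All libraries came from wild-type Balb/C mice aged 8 to 12 weeks, from crushed leg bones enriched for c-Kit on magnetic beads and sorted as live lineage-negative cells. LMPP was sorted as c-Kit+ Sca-1+ CD34+ Flt3+ (1 library). The 3 libraries of GMP, the granulocyte-monocyte progenitor (c-Kit+ Sca-1- CD34+ CD16/32 high), and the 1 of CMP, the common myeloid progenitor (c-Kit+ Sca-1- CD34+ CD16/32 low), were picked by the same rule to set the LMPP cells beside others. The labels do not say how many animals were pooled or whether the GMP replicates came from separate animals. With 1 LMPP library no test was possible within LMPP: its values are sums over cells, with intervals that cover counting error only, and p-values below measure the spread between GMP samples.

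A dividing cell copies its DNA in S phase, under E2F transcription factors, and then makes the RNAs of spindle, kinetochore and chromosome condensation proteins in G2 and mitosis, largely under B-Myb, FoxM1 and the DREAM complex. Mki67 encodes Ki-67, which coats mitotic chromosomes and is made outside the resting state G0. Top2a encodes the topoisomerase that untangles copied DNA, and Aspm a spindle pole protein. Multipotent progenitors hold both resting and dividing cells, and LMPP are known to divide more than the stem cells they derive from.

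Because Mki67 chose the cells, its own values are a description. The cycling LMPP cells held a median of 9 Mki67 UMIs (quartiles 5 and 18, highest 117) and a median of 11 Top2a UMIs, and 39 of them (2.28%) had no Top2a UMI. Aspm, which the rule did not use, had at least 1 UMI in 56.8% of cycling cells and in 3.61% of comparison cells. The cycling cells were deeper, with a median of 15417.5 UMIs and 4074.5 genes against 6202 UMIs and 2264 genes in comparison cells. After each cell was thinned to 5000 UMIs and shallower cells were left out (1676 cycling and 1599 comparison cells remained), Aspm was seen in 30.5% of cycling cells (28.3 to 32.8) and 2.44% of comparison cells (1.74 to 3.32). Doublet calls made against simulated doublets took in 9.10% of cycling cells and 1.85% of comparison cells, and both were kept. The median mitochondrial share was 1.386% in cycling cells and 1.498% in comparison cells. Of the 8033 LMPP barcodes, 81 also occurred in another library, 15 of them among the cycling cells.

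At the edge of the rule, the 217 cycling cells with exactly 3 Mki67 UMIs had a median of 0.530% of their UMIs in a list of G2M and mitosis genes and 0.572% in a list of S phase and replication genes. The 402 cells just outside, with 2 Mki67 UMIs, had 0.299% and 0.502%. Without the Dntt, Il7r and Ebf1 limits 2230 LMPP cells had at least 3 Mki67 UMIs. Dntt marked 491 of the cells left out, with a G2M median of 1.04%, and Il7r with Ebf1 marked 213, with a G2M median of 1.26%.

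The rule took in 21.3% of LMPP cells, 16.0% of CMP cells and 21.4%, 32.0% and 33.5% of the cells of GMP replicates 1, 2 and 3, a GMP mean of 29.0% ± 6.58 (SD, n = 3). The median depth was 9605 UMIs per cell in LMPP, 10431 in CMP and 11152 to 15464 in GMP. Cells of at least 5000 UMIs were then thinned to 5000, and the whole rule was applied to the thinned counts. Of 6964 such LMPP cells 16.7% met it (15.9 to 17.6), against 7.73% of CMP cells (7.09 to 8.41). In GMP 4.70%, 7.07% and 6.40% met it, a mean of 6.06% ± 1.22 (SD, n = 3). Thinning also lowers Dntt, Il7r and Ebf1, so the limits let in some cells left out before. Before thinning, 7051 of 8033 LMPP cells met the limits, against 9116 of 9123 in GMP replicate 1. The part of the cells let in was not tested. Over whole libraries Mki67 stood at 397 CPM (UMIs of the gene per 1000000 UMIs) in LMPP, 185 in CMP and 128, 162 and 152 in GMP. The thinned shares and the CPM thus put LMPP above every other library, whereas the shares over all UMIs do not, and no order is read from those. With 1 LMPP library this is no test between populations.

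**Figure D1:**
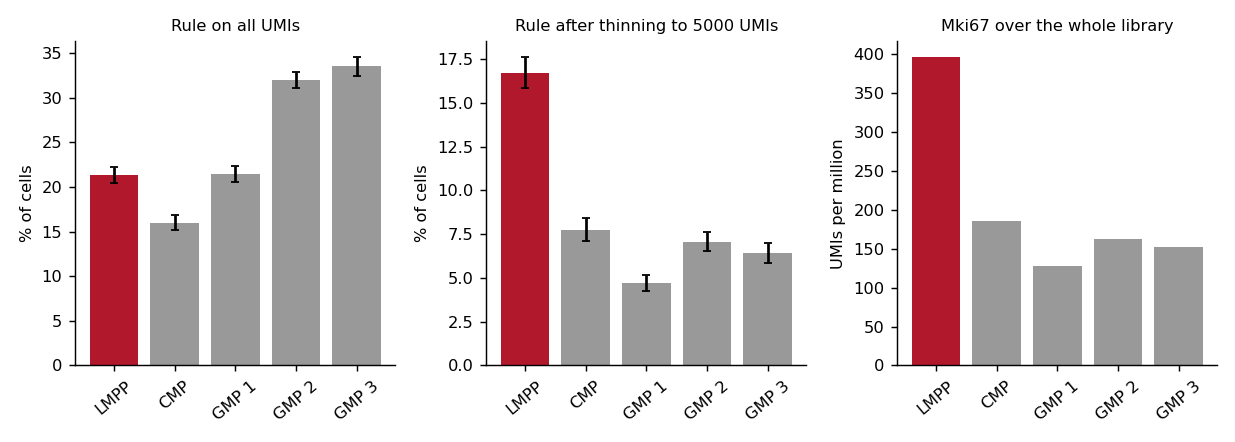
Percent of cells meeting the rule over all UMIs (left) and, among cells of at least 5000 UMIs, after thinning to 5000 (middle), with exact 95% counting intervals, and Mki67 in CPM of each library (right), for LMPP, CMP and the 3 GMP libraries. LMPP stands at 21.3% and 16.7% in the first 2 panels and at 397 CPM in the third.

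The cycling LMPP cells spread over S phase and G2M rather than over one state. The S phase list took a median of 0.531% of a cycling cell's UMIs (quartiles 0.332 and 0.757) against 0.157% (0.107 and 0.270) in comparison cells. The G2M list took 1.01% (0.663 and 1.49) against 0.147% (0.108 and 0.189), and replication-dependent histone genes took 0.866% (0.394 and 1.14) against 0.114% (0.0762 and 0.171). The quartiles of the cycling and comparison cells do not overlap for any of the 3 lists. Histone RNAs of this kind mostly end without a poly(A) tail, so a 3′ poly(A) method sees only part of them. The 3067 cells between had 0.311% S phase, 0.187% G2M and 0.116% histone UMIs, above the comparison cells mainly in the S phase list.

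**Figure D2:**
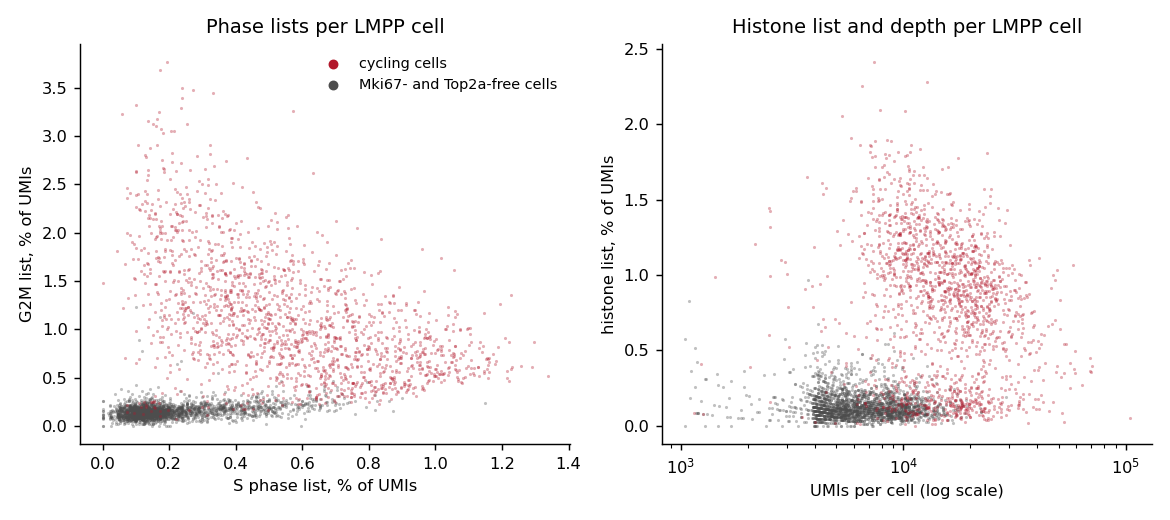
Each point is 1 LMPP cell, with the percent of UMIs in the S phase list against the G2M list (left) and UMIs per cell on a log scale against the percent in histone genes (right), for the 1714 cycling cells and the 2270 comparison cells. The cycling cells run from high S phase with low G2M to high G2M with low S phase, while comparison cells stay near a G2M median of 0.147%.

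In the summed UMIs, 8738 genes reached 10 CPM in one group or the other. Of these 445 were at least 2-fold higher in cycling LMPP cells than in comparison cells (5.09%) and 198 were at least 2-fold lower (2.27%), with Mki67, Top2a, Dntt, Il7r and Ebf1 left out. The cells were chosen on Mki67 in this same library, so the counts describe them and test nothing. Among genes reaching 50 CPM the highest ratio was that of Hmmr, a spindle assembly protein, at 134 CPM in cycling cells and 4.87 in comparison cells, a log2 ratio of 4.78 (95% counting interval 4.46 to 5.13). Esco2, which acetylates cohesin to hold sister chromatids together, followed at 119 against 4.61 CPM (4.69, 4.35 to 5.04). The histone gene Hist1h3c stood at 109 against 4.24 CPM (4.68), and Nusap1, which binds spindle microtubules, at 379.6 against 15.3 CPM (4.63). Linker histone gene Hist1h1b reached 934 against 41.1 CPM (4.50), more RNA than any other of the 10. The rest were the kinetochore genes Nuf2 (50.6 against 2.53 CPM), Knl1 (161 against 8.09) and Cenpf (406 against 22.1), the spindle protein gene Ckap2l (129 against 6.45) and the mitotic kinesin gene Kif15 (154 against 7.90). All 10 thus belong to chromosome copying, packing or separation. Histone genes are near-identical to each other, and their UMIs may be divided between copies.

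**Figure D3:**
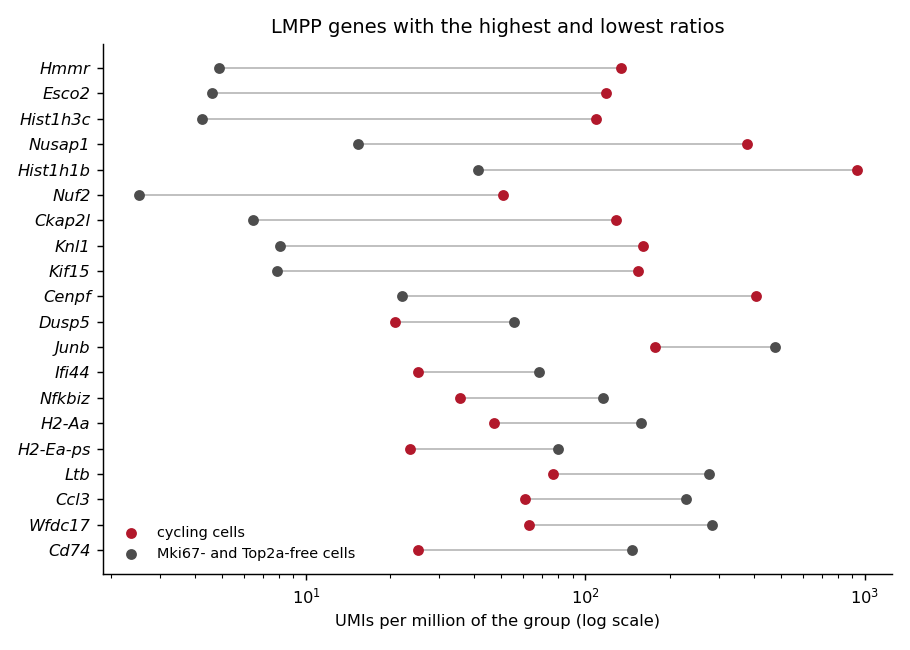
CPM on a log scale in cycling LMPP cells and in comparison cells for the 10 genes with the highest and the 10 with the lowest ratio among those at least 2-fold apart that reached 50 CPM on either side. The ratios run from Hmmr (134 against 4.87 CPM) to Cd74 (25.1 against 147 CPM).

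Promoter windows from RefSeq (GRCm38.p6, which is mm10, from 250 bases before to 50 after each gene start) are shown for 4 of these genes. The 4 were chosen because they hold matches to some of the 3 motifs that textbooks assign to the cell cycle regulators above. None of the 4 holds all 3 motifs. Capitals mark the cell cycle homology region (CHR, TTTGAA, read by DREAM and B-Myb complexes), CCAAT (read by NF-Y) and E2F letters (TTTGGCGC, TTTCCCGC, TTTGCCGC or TTTCGCGC), each searched on both strands. In the Kif15 window the E2F and CHR letters adjoin.
Hmmr, chr11:40733388-40733687, minus strand: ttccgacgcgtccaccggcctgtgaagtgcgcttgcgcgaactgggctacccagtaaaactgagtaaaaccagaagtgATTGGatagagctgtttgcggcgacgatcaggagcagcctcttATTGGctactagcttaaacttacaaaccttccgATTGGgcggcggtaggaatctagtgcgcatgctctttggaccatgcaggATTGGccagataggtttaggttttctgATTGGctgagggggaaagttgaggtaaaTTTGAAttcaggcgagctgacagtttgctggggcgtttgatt
Ckap2l, chr2:129297163-129297462, minus strand: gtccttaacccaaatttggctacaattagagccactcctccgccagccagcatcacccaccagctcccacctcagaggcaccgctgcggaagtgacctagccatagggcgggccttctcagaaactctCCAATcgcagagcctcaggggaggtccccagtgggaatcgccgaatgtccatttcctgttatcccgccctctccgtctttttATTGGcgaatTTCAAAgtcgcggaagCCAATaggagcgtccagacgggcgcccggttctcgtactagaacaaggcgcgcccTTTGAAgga
Kif15, chr9:122950831-122951130, plus strand: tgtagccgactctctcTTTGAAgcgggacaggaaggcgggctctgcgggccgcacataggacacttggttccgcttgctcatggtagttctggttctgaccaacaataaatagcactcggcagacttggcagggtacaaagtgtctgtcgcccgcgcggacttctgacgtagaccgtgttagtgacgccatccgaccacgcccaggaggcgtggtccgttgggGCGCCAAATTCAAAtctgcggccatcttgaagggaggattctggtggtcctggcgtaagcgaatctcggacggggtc
Cenpf, chr1:189688037-189688336, minus strand: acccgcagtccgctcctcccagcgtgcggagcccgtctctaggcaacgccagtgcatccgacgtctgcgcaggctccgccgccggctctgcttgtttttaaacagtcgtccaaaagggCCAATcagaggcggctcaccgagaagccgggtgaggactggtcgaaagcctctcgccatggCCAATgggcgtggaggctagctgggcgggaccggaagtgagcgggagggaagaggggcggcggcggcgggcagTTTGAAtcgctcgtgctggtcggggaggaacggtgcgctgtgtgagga

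Hmmr carries 1 CHR and 5 CCAAT, Ckap2l 2 CHR and 3 CCAAT, Cenpf 1 CHR and 2 CCAAT, and Kif15 2 CHR and 1 E2F match. Of the 10 genes named above 7 had a window in the table, and 5 of these held the CHR letters. The windows of Nusap1 and Nuf2 held none of the 3 motifs. Over the genes at least 2-fold higher in cycling LMPP cells, of which 330 of 445 had a window, 34.2% of 383 windows held CHR letters and 57.2% held CCAAT. Over those at least 2-fold lower, with 140 of 198 matched, the shares were 13.1% and 38.8% of 183 windows. Over all genes compared the shares were 12.4% and 38% of 8645 windows, level with those of the lower genes, and over all 32851 windows they were 17.9% and 37.4%. CHR and CCAAT stood together in 60.7% of the 61 windows of the G2M list, in 5.09% of those of the genes compared and in 6.95% of all windows. E2F letters were in 34.9% of the 43 windows of the S phase list, in 6.56% of the G2M windows, in 4.45% of those of the genes compared and in 2.26% of all windows. These are matches of letters only.

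All 64 compared genes of the 65 in the G2M and mitosis list were at least 2-fold higher in cycling LMPP cells, with a median log2 ratio of 3.41 against -0.0034 over all genes compared. Hmgb2, a chromatin protein and the most abundant of them, stood at 2106 CPM in cycling cells and 361 in comparison cells, and the tubulin gene Tubb4b at 552 against 153. In GMP 65 of 65 rose by the edgeR quasi-likelihood test (adjusted p under 0.05, where 17.4% of 13669 genes rose and 15.9% fell), with a median of 1.90. The GMP groups were chosen on Mki67 and Top2a too. A rise of G2M genes there may thus follow from the choice itself and is no independent test. Hmmr in the GMP libraries held 73.7, 92.7 and 86.6 CPM in cycling cells and 11.3, 16.1 and 13.8 CPM in comparison cells, without overlap, a difference of 2.61 ± 0.059 (log2 ± SE, n = 3 libraries, edgeR adjusted p = 4.40e-23). The cycling cells of LMPP thus held more Hmmr than those of any GMP library, and the comparison cells less.

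S phase genes were higher in a more graded way. Of 48 genes compared, 39 were at least 2-fold higher in cycling LMPP cells and none lower, with a median of 1.32. Rrm2, which encodes the small subunit of ribonucleotide reductase, led with 88.5 CPM in cycling cells against 6.83 in comparison cells, and Tk1, thymidine kinase, followed with 104 against 10.3. The abundant members differed less: Dut, the dUTP pyrophosphatase, stood at 436 against 207 CPM and the maintenance DNA methyltransferase Dnmt1 at 257 against 110. In GMP 30 of 48 rose, 8 fell and the median was 0.19, and Dut fell by 0.10 on the log2 scale (SE 0.026, edgeR adjusted p = 0.00282) there.

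Of 70 replication-dependent histone genes 43 could be compared, and 36 of these were at least 2-fold higher in cycling LMPP cells and none lower (median 2.15). Hist1h2ap, the most abundant, stood at 2848 CPM in cycling cells against 336 in comparison cells, Hist1h2ae at 1072 against 168, and the weakly expressed Hist1h2af at 11.5 against 0.316 (338 and 5 UMIs, log2 interval 3.95 to 6.82). Cohesin and condensin genes, which tie and compact chromosomes, were higher in 14 of 18 cases (median 2.49). Among them Espl1, the separase that frees sister chromatids, stood at 23.9 against 1.52 CPM, the condensin subunit gene Smc4 at 474 against 118, and the cohesin subunit gene Smc1a at 499 against 349.8, within 2-fold. DNA repair and Fanconi genes were higher in 11 of 18 (median 1.32), with Fancd2, a crosslink repair gene, at 13.5 against 1.14 CPM and the recombination gene Rad54b at 24.0 against 3.03. Wee1, the kinase that holds back mitosis, stood at 78.8 against 63.1 CPM, within 2-fold. Chromatin proteins of dividing cells were higher in 16 of 29 (median 1.07), led by the histone chaperone gene Asf1b (55.7 against 8.34 CPM) and the histone variant H2afx (458 against 69.2). H2afz, another histone variant, stood at 2926 against 1049 CPM, while the replacement histone gene H3f3b stood at 3566 against 3696.

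The regulators divided by kind. Of 23 cell cycle transcription regulators compared, 11 were at least 2-fold higher and none lower (median 0.54). Mxd3, a Max partner known from S phase, stood at 26.6 CPM in cycling cells against 1.07 in comparison cells, and E2f8, a repressor of E2F targets, at 40.0 against 4.30. Myb, a progenitor factor, at 305 against 285 CPM, and Tfdp2, a partner of E2F proteins, at 106 against 101, were both near equal. Of 18 D cyclins, CDKs, CDK inhibitors and related growth regulators, 2 were higher and 3 lower (median -0.24). The higher ones were the CDK inhibitor gene Cdkn2c, at 10.5 against 2.53 CPM, and Rbl1, which encodes the pocket protein p107, at 36.5 against 13.9. Btg2, an antiproliferative gene of the immediate early kind, was lower at 187 against 404 CPM, as were Btg1 at 85.6 against 178 and Ccnd1 at 12.3 against 26.2, though per cell Btg2 stood at 3.20 against 2.81 UMIs. Cdk4, the D cyclin partner, stood at 370.3 against 244 CPM.

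Growth and metabolism genes stayed mostly within 2-fold. No gene of ribosome biogenesis (23 compared, median 0.31), glycolysis (12, median 0.22), the proteasome (37, median 0.38) or the ribosomal proteins (82, median -0.10, or 0.01 with TMM scaling) was 2-fold apart. Npm1, a nucleolar chaperone, stood at 2990 CPM in cycling cells against 2279 in comparison cells, and the glycolytic enzyme gene Gapdh at 1511 against 1195. Of 24 nucleotide and one-carbon genes 2 were higher, Mthfd2 of the mitochondrial folate cycle (30.7 against 7.46 CPM) and the CTP synthase gene Ctps (25.01 against 12.1). Of 77 oxidative phosphorylation genes 1 was higher, Cox6b2, a subunit isoform best known from testis (98.0 against 46.2 CPM), and the median was 0.35. Small ratios above 1 were common in some of these lists, in 36 of 37 proteasome genes, 72 of 77 oxidative phosphorylation genes and 22 of 24 nucleotide and one-carbon genes. Over all genes compared, 4344 of 8738 had a ratio above 1. The median of the nucleotide and one-carbon genes was 0.57, or 0.14 in the depth band. In cells of 8000 to 20000 UMIs (the depth band) the medians of ribosome biogenesis and glycolysis turned to -0.25 and -0.29, while the median over all genes compared moved to -0.17. Scaling by TMM factors in place of total UMIs moved that median to 0.12.

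Stem and multipotent genes made up a smaller part of the RNA of cycling LMPP cells. Of 24 such genes 19 could be compared, and each of the 19 had less in cycling cells, with 4 at least 2-fold lower and a median of -0.69. Over all genes compared, 4394 of 8738 had less in cycling cells. Hlf, a transcription factor of stem cells and early progenitors, stood at 389 CPM in cycling cells against 762 in comparison cells (log2 ratio -0.97, -1.01 to -0.93). Ly6a, which encodes the sorted antigen Sca-1, stood at 9.59 against 26.9 CPM (-1.49, -1.71 to -1.27), Txnip, a redox and glucose uptake regulator of resting cells, at 193 against 484 and Ifitm1, an interferon-inducible membrane protein gene, at 733 against 1571. Ly6a was seen in 4.65% of cycling cells (3.70 to 5.77) against 11.8% of comparison cells (10.2 to 13.4) at 5000 UMIs per cell, and Hlf in 74.0% against 89.6%. The median of the list was -0.68 in cells of 8000 to 20000 UMIs and -0.70 after thinning. These are shares of RNA: the deeper cycling cells held 6.65 Hlf UMIs per cell against 5.31 in comparison cells, 12.5 against 10.95 of Ifitm1, 3.30 against 3.37 of Txnip, and 0.164 against 0.188 of Ly6a. Taken per cell, the median log2 ratio of the list was 0.60, against 1.29 over all genes compared.

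The genes of the other sorted antigens were nearer to level. Flt3 stood at 94.1 CPM in cycling cells against 142 in comparison cells, Kit at 139 against 174 and Cd34 at 294 against 346. Fcgr3 and Fcgr2b, the CD16/32 genes by which GMP are sorted, stood at 2.87 against 2.02 and 10.03 against 5.44 CPM. The median over 12 lymphoid-primed genes was -0.24, and none was at least 2-fold lower. Mef2c and Bcl11a, transcription factors of early lymphoid cells, stood at 466 against 667 and 179 against 236 CPM.

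With cells divided the other way, by a gene rather than by Mki67, the share of cycling cells differed with some progenitor genes and little with others. At 5000 UMIs per cell, 18.1% of the 6452 cells that met the limits on thinned counts had at least 3 Mki67 UMIs. The share was 21.0% of cells with no Hlf UMI (18.8 to 23.4), 23.7% with 1 (21.2 to 26.3), 19.1% with 2 to 3 (17.3 to 20.9) and 12.7% with 4 or more (11.4 to 14.2). For Ly6a it was 19.002% of the 5894 cells with none and 8.40% of the 488 cells with 1 UMI (6.096 to 11.2). Mecom, a stem cell transcription factor, showed less of a gradient, with 18.7% of cells with none and 13.5% of the 74 cells with 4 or more (6.68 to 23.5). For Kit it was nearly flat up to 3 UMIs, at 18.2% of cells with none, 17.6% with 1 and 19.2% with 2 to 3. Among the 87 cells with 4 or more Kit UMIs it was lower, at 9.20% (4.05 to 17.3). For Cd34 it was 19.1%, 19.2%, 17.3% and 15.5% of cells with none, 1, 2 to 3 and 4 or more, a smaller spread than for Hlf. These shares come from the same library as the ratios above and are no separate evidence. The cells differ in part: the rule and its limits were applied to thinned counts, and the cells between were counted too.

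Immediate early and heat shock genes, which respond within minutes to signals or handling, also took a smaller share. Of 13 genes compared, from a list of 17, 9 were at least 2-fold lower and none higher (median -1.05, and -0.96 in cells of 8000 to 20000 UMIs). Fos stood at 1764.5 CPM in cycling cells against 3621 in comparison cells, Jun at 2370.5 against 4403, Junb at 178 against 479, and Zfp36, an RNA decay factor, at 132 against 312. Per cell the cycling cells held 30.2 Fos UMIs against 25.2, and 3.04 Junb UMIs against 3.34, and the median of the list was 0.25. In GMP 15 of 17 fell and 2 rose, with Junb at -0.98 ± 0.051 (log2 ± SE, edgeR adjusted p = 4.94e-15). Of 13 interferon response genes 2 were lower, Ifit1 (4.84 against 13.7 CPM) and Irf7 (19.1 against 40.8), with a median of -0.65, or -0.28 in the depth band. The most abundant of this list stood at 769.9 against 1205 CPM (Ifitm3) and 512 against 521 CPM (Ifitm2).

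Genes of other cell types were present on both sides. Among the 10 lowest ratios at 50 CPM or more, Cd74, the MHC class II invariant chain, stood at 25.1 CPM in cycling cells against 147 in comparison cells (-2.55, -2.67 to -2.43), H2-Aa at 46.9 against 157 and the pseudogene H2-Ea-ps at 23.5 against 79.6. The secreted protein gene Wfdc17 stood at 63.0 against 284 CPM, the chemokine gene Ccl3 at 60.7 against 229, and Ltb, which encodes lymphotoxin beta, at 76.8 against 277. The remaining genes of the 10 were Nfkbiz, an NF-kappaB cofactor (35.5 against 115 CPM), the interferon-induced Ifi44 (25.1 against 68.1), Junb, and the phosphatase gene Dusp5 (20.9 against 55.6). In the dendritic cell and macrophage list 4 of 5 genes compared were lower, H2-Eb1 among them (9.89 against 39.1 CPM), Cst3 was within 2-fold (483 against 628), and the list summed to 614 against 1071 CPM. Its defining markers Siglech, Cd209a and Adgre1 were each below 1 CPM in both groups. Cells with at least 5 UMIs of Cd74 and H2-Aa made up 3.56% of cycling cells (2.73 to 4.55) and 4.01% of comparison cells (3.24 to 4.90), or 0.597% and 2.25% at 5000 UMIs per cell. With the cells of these and the other lineage limits left out, the median of the dendritic cell and macrophage list was -0.65, against -1.75 with all cells.

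Granulo-monocytic genes were higher in 6 of 13 cases and lower in none (median 0.68). Against all other cells that met the limits, in place of the comparison cells, the median was 0.086. Ctsg, cathepsin G, stood at 367 CPM in cycling cells against 101 in comparison cells, Elane, neutrophil elastase, at 853 against 340, Ly6c2, a monocyte surface antigen, at 12.8 against 2.15, and Prtn3, proteinase 3, at 1140 against 776. Mpo, myeloperoxidase, stood at 716 against 241 CPM. In the cells between it stood at 446 CPM with Top2a alone and at 525 and 620 CPM with 1 and 2 Mki67 UMIs. Cells with at least 5 UMIs of Mpo, Elane and Ctsg made up 52.3% of cycling cells (49.9 to 54.7) and 9.65% of comparison cells (8.46 to 10.9), or 19.5% (17.6 to 21.5) and 4.75% (3.76 to 5.91) at 5000 UMIs per cell. The median of the list was 0.56 after thinning but -0.24 in the depth band, where Elane stood at -0.21 and Ctsg at 0.14, so the direction depended on how depth was evened. Of 7 erythroid genes 4 were higher (median 1.24, or 0.55 after thinning and -0.09 in the depth band), with Car1, a carbonic anhydrase of erythroid progenitors, at 152 against 15.4 CPM, Ermap, an erythroid membrane protein gene, at 22.8 against 1.77, and Car2 at 394 against 497. Cells with at least 3 UMIs of Car1, Klf1 and Ermap were 60 of the cycling cells (3.50%, 2.68 to 4.48) and 9 of the comparison cells (0.396%, 0.181 to 0.751), and at 5000 UMIs 3.22% and 0.375%.

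Of 7 neutrophil genes 3 were higher and none lower (median 0.995, or 0.32 against all other cells that met the limits). The granule gene Ngp stood at 329 CPM in cycling cells against 107 in comparison cells, and Lcn2, lipocalin, at 68.8 against 27.7. S100a9 stood at 979 against 536 CPM and S100a8 at 918 against 471. At least 5 UMIs of Ngp and Camp were found in 31 cycling cells (1.81%) and 6 comparison cells (0.264%), or 17 (1.01%) and 4 at 5000 UMIs per cell. A low count was common to both groups: at 5000 UMIs per cell 10.6% of cycling cells and 10.5% of comparison cells held an Ngp UMI, and 6.56% and 7.19% held one of Igkc, an immunoglobulin gene. These shares did not differ between the groups beyond their counting intervals and are not read as expression. Of 31 LMPP cells with at least 10 UMIs of the neutrophil genes Ltf, Mmp8 and Retnlg, 41.9% had at least 3 Mki67 UMIs. The share was 27.8% of all filtered LMPP cells. At 5000 UMIs per cell, 73.1% of 26 such cells (52.2 to 88.4) held an Mki67 UMI, against 41.7% of all. The cause was not tested. The basophil protease genes Prss34 (18.0 against 1.14 CPM) and Mcpt8 (26.6 against 4.24) were higher as well. At least 3 of their UMIs together were found in 24 cycling cells and 1 comparison cell. At 5000 UMIs per cell they were found in 5 cycling cells (0.298%, 0.0969 to 0.695) and 1 comparison cell (0.0625%, 0.00158 to 0.348), whose intervals overlap. The mast cell protease gene Cpa3 stood at 15.0 against 13.0 CPM. Megakaryocyte genes were within 2-fold (7 compared, median 0.04), with the platelet factor gene Pf4 at 73.7 against 45.3 CPM. One B cell gene, Cd79b, and one T and NK cell gene, Nkg7, could be compared and were within 2-fold. Lineage antibodies in the sort would remove cells with these antigens on the surface.

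When the 967 cycling cells (56.4%) and 318 comparison cells (14.0%) that passed any of these 5 lineage limits were left out, a choice made after seeing the data, 747 cycling cells remained. Without doublet calls the median was 3.50 for the G2M list, 1.35 for S phase and -0.72 for stem and multipotent genes. With lineage cells left out the G2M list median was 3.67, the S phase median 1.36 and the histone median 2.56. The stem and multipotent median was -0.45 and the immediate early median -0.85. The granulo-monocytic median turned to -0.41 and the neutrophil median to -0.10. The limits use Mpo, Elane and Ctsg of the first list and Ngp and Camp of the second. Cells high in these genes were thus left out by construction, and the cause for the other genes of the lists was not tested.

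Levels over bins of Mki67 showed which genes followed it and which did not, in cells thinned to 5000 UMIs so that every bin has 1 depth. Aspm went with Mki67 throughout, at 5.64 CPM in cells without Mki67 and Top2a, 22.8 at 1 Mki67 UMI, 72.0 at 3 to 4 and 297 at 10 or more. Ccnb2, cyclin B2, did likewise, at 13.7, 50.7, 170 and 365 CPM in the same bins. Hist1h1b was at 51.6, 356, 1039 and 1076 CPM, and its highest level, 1213 CPM, was at 5 to 9 Mki67 UMIs. Ccne2, the cyclin E2 gene of the G1 to S transition, peaked earlier, at 34.5 CPM in cells with 2 Mki67 UMIs. It stood at 6.22 CPM in cells without Mki67 and Top2a (from here on, cells with none) and at 8.33 at 10 or more. Hlf had its lowest level in that same bin of 2 UMIs, 409 CPM, between 719 in cells with none and 600.0 at 10 or more. Fos took the same form, with 3576, 1628 and 2174 CPM. Mpo took the opposite one, with 293, 560 and 272 CPM in those bins. Ccnd2, cyclin D2, stood at 284 CPM in cells with none, 157 at 2 and 146 at 10 or more. Among the 144 cells with most Mki67, Hlf was thus nearer to the level of cells with none than at 2 UMIs, and Mpo was not above that level. The bins are of 144 to 2411 cells of 1 library, with no replicate.

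**Figure D4:**
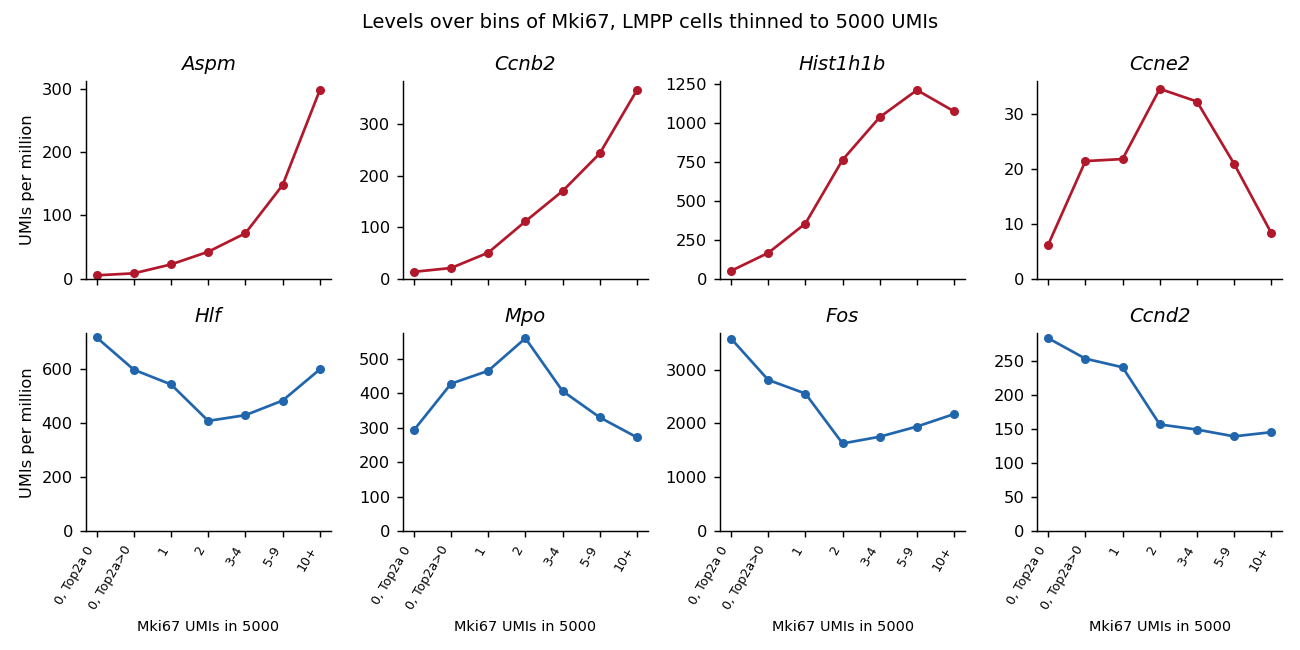
CPM of 8 genes over bins of Mki67 UMIs in LMPP cells that met the Dntt, Il7r and Ebf1 limits, each cell thinned to 5000 UMIs. Aspm and Ccnb2 climb with Mki67 to 297 and 365 CPM, Ccne2 peaks at 34.5 CPM with 2 Mki67 UMIs, and Hlf has its lowest level, 409 CPM, in that bin.

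Among the cycling cells themselves, the 428 cells leaning most to S phase (the S phase list at a median of 0.862% and the G2M list at 0.515% of UMIs) were set against the 428 leaning most to G2M (0.239% and 1.83%). The lists made and named these sets, so their own genes are no result, and the names alone place no cell in a phase. Outside the 3 phase lists 328 of 8611 genes were at least 2-fold higher in the S-leaning cells (3.81%) and 198 in the G2M-leaning cells (2.3%). Nucleotide and one-carbon genes were higher in the S-leaning set in 11 of 24 cases, with Ctps at 37.0 CPM against 12.3 in the G2M-leaning set, Mthfd2 at 37.0 against 14.7 and Dctpp1, a dCTP pyrophosphatase, at 418 against 173. Of 44 histone genes none was higher in the S-leaning set and 21 were higher in the G2M-leaning one, where Hist1h2ae stood at 1157 CPM, against 487 in S-leaning cells. The median histone share of UMIs was 0.228% in S-leaning cells and 0.850% in G2M-leaning cells. Hlf differed little, at 409 against 443 CPM, and so did Mpo, at 685 against 635 CPM and Fos, at 1798 against 1740. Ly6a stood at 17.9 CPM in the S-leaning set (136 UMIs) against 5.30 (35 UMIs) in the G2M-leaning one. The basophil genes Prss34 (1.05 against 76.4 CPM) and Mcpt8 (6.57 against 66.1) were higher in the G2M-leaning cells. Only 24 of all cycling cells held at least 3 of their UMIs together, so these values may rest on few cells. Doublet calls made up 11.2% of the S-leaning and 3.74% of the G2M-leaning set, and their part in these values was not tested.

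The cycling difference in LMPP was set against that in GMP in one edgeR quasi-likelihood fit. With 1 LMPP library the fit has no spread within LMPP, so its p-values hold only if LMPP libraries vary like GMP libraries. By the test of the interaction, 2461 of 16613 genes had a larger cycling difference in LMPP (14.8%) and 1121 a smaller one (6.75%). The DESeq2 Wald test gave 1002 and 211, and in GMP alone it gave 1143 genes that rose and 1201 that fell, against 2379 and 2171 by edgeR. All 48 S phase genes (median difference of differences 1.15, log2), 62 of 65 G2M genes (1.59) and 43 of 62 histone genes (1.05) had larger ones, with 1 histone gene smaller. Cohesin and condensin genes did so in 16 of 18 cases, DNA repair genes in 20 of 25, oxidative phosphorylation genes in 71 of 81 and proteasome genes in 31 of 38, with none smaller in these 4 lists. Rrm2 differed by 2.95 ± 0.13 (log2 ± SE, edgeR adjusted p = 3.50e-33): in LMPP it held 88.5 CPM in cycling cells and 6.83 in comparison cells, and in GMP it held 81.3, 87.8 and 93.6 CPM in cycling cells and 44.4, 53.5 and 53.2 CPM in comparison cells. Its level in cycling LMPP cells thus lay within the range of the GMP libraries, and its level in LMPP comparison cells lay below all 3. Ccnb2 differed by 2.88 ± 0.10 (edgeR adjusted p = 6.85e-38), with 171 CPM in cycling LMPP cells and 12.6 in LMPP comparison cells, and 122, 115 and 113 CPM in cycling GMP cells and 60.7, 59.0 and 63.5 CPM in GMP comparison cells.

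LMPP comparison cells as a whole carried less cell cycle RNA than those of GMP. Their median S phase share was 0.157% of UMIs in LMPP, against 0.338%, 0.349% and 0.350% in GMP replicates 1, 2 and 3, and their G2M share was 0.147% in LMPP, against 0.221%, 0.254% and 0.249% in GMP. Cycling LMPP cells held more G2M RNA (1.01%, against 0.721%, 0.739% and 0.713% in GMP) and more S phase RNA (0.531%, against 0.395%, 0.408% and 0.412% in GMP). The rule also took in cells with unlike Mki67. Cycling cells held a median of 9 Mki67 UMIs in LMPP, against 4, 5 and 5 in GMP replicates 1, 2 and 3. Their median of Top2a UMIs was 11 in LMPP, against 6, 8 and 8 in GMP. The part of all these values in the interaction was not tested. CMP cycling cells lay between for S phase (0.438%) and G2M (0.914%), and CMP comparison cells near those of LMPP (0.179% and 0.148%). Comparison cells were 28.3% of LMPP cells and 18.6%, 10.3% and 10.5% of GMP cells.

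Other genes differed between LMPP and GMP in direction. Mns1, a gene of ciliated and meiotic cells, stood at 75.7 CPM in cycling LMPP cells against 10.7 in comparison cells, but at 48.7, 54.7 and 41.0 CPM in cycling GMP cells against 57.5, 79.6 and 67.1 in GMP comparison cells (interaction 3.38 ± 0.12, edgeR adjusted p = 2.18e-37). Klf4, a factor of monocytes and of resting cells, stood at 82.0 against 193 CPM in LMPP but at 12.9, 12.4 and 15.0 CPM in cycling GMP cells against 5.15, 4.83 and 8.10 in GMP comparison cells (-2.35 ± 0.12, edgeR adjusted p = 1.13e-27). Klf2, which holds lymphoid cells in rest, stood at 323 against 459 CPM in LMPP and 45.0 ± 9.18 against 27.8 ± 7.95 CPM (SD, n = 3) in GMP. Hlf showed no such change of direction. The GMP libraries held 3.75 to 6.21 CPM of it in cycling cells and 4.05 to 6.22 CPM in comparison cells, which overlap. These levels were far below the 389 and 762 CPM in LMPP, and the interaction was -0.80 ± 0.13 (log2 ± SE). In the eosinophil, basophil and mast list 2 of 3 genes compared were higher in cycling LMPP cells, while 9 of 9 fell in cycling GMP cells, and 7 of 9 had a larger difference in LMPP.

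**Figure D5:**
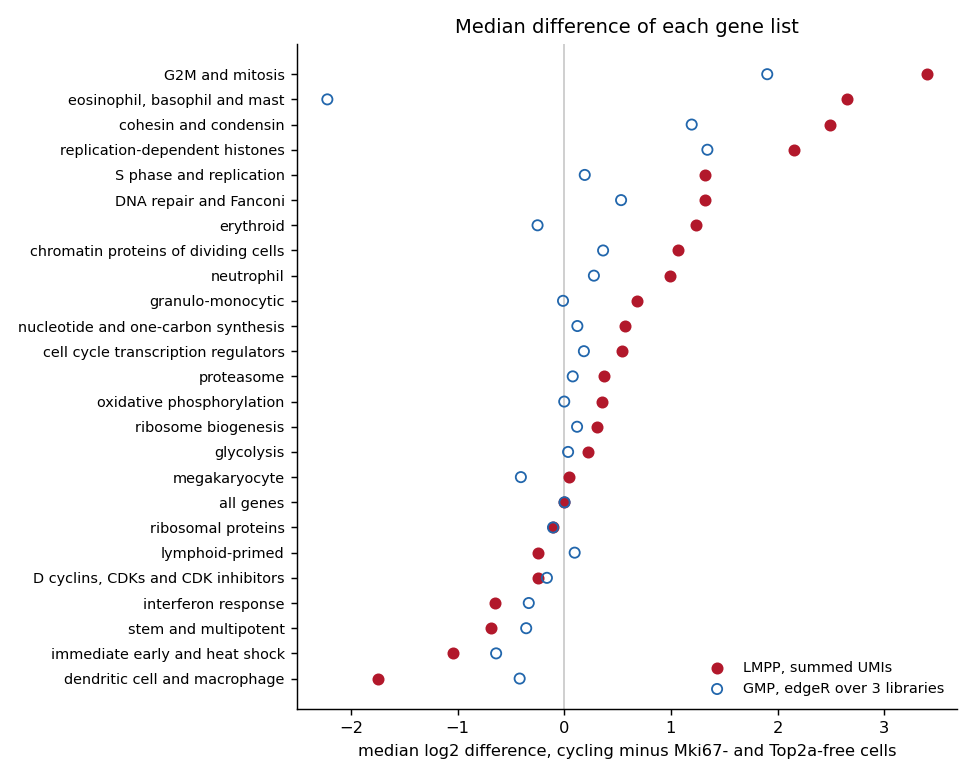
Median log2 difference of each gene list with 3 or more genes compared, cycling minus comparison cells, in LMPP (filled points, ratio of summed UMIs) and in GMP (open points, edgeR over 3 libraries, over the genes that could be tested). The G2M list stands at 3.41 in LMPP and 1.90 in GMP, the S phase list at 1.32 and 0.19, and the eosinophil, basophil and mast list at 2.65 (3 genes) and -2.22 (9 genes).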

How the data were processed

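The deposited values are UMI counts, 1 for each pair of gene and barcode, from 10x 3′ v3 libraries, per the labels' protocols. The submitters' processing notes name Cell Ranger 3.1.0, Seurat 3.1.1 and mm10, whereas the file headers name Cell Ranger 6.1.1. How barcodes were kept is not given in the sources used here. Library totals were 93770259 UMIs for LMPP, 90067195 for CMP and 112327644 to 137141095 for GMP.

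Members and lists were chosen with earlier results of these data known. In LMPP, UMIs were summed per group and compared as ratios of CPM (per 1000000 UMIs), with exact conditional intervals at 95% that cover counting error only. For GMP, sums per library and group went to the edgeR 4.0.16 quasi-likelihood test (TMM, filterByExpr, library as a block, Benjamini-Hochberg adjustment at 0.05, 2 residual degrees of freedom, R 4.3.3), and LMPP was added for the interaction. Doublets were called from 2000 variable genes, 30 principal components and 60 neighbours at 0.8% per 1000 barcodes (numpy 2.4.6, scikit-learn 1.9.0). On simulated counts with 200 changed genes, the GMP test recovered 98.0% of 2-fold changes and the interaction 81.9%. The simulated LMPP counts were drawn with the base levels and spread used for GMP. The interaction value thus cannot say whether LMPP libraries vary like GMP libraries.

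Named were the 10 highest and 10 lowest ratios among genes reaching 50 CPM, of each list the 2 called members with the largest change and the 2 most abundant, the gate genes, and the 8 largest interactions each way with at least 50 CPM in one group. Predicted, mitochondrial and rule genes were left out. Mpo, Ccne2, Ccnd2, Ccnd1, Btg1, Mecom and Igkc lie outside this rule and were chosen with their values known. Some genes the rule names are not reported here.

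Alternatives covered doublets, the Mki67, lymphoid and mitochondrial limits, depth, scaling, fold and level limits, the comparison cells, DESeq2 1.42.0, the low-count filter, the block and single GMP replicates.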

Additional observations from a re-analysis of the deposited data

Results flagged for a closer look

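The cycling difference was larger in LMPP than in GMP for 2461 genes and smaller for 1121, by the edgeR quasi-likelihood test of the interaction at an adjusted p of 0.05, which holds only if LMPP libraries, of which there is 1, vary like GMP libraries. By the rule for naming, the largest differences of differences, on the log2 scale, were those of Prss34 (4.71), Mcpt8 (3.73), Mns1 (3.38), Car1 (3.31), Prg2 (3.25), Rrm2 (2.95), Cma1 (2.88) and Ccnb2 (2.88). Prss34 and Mcpt8 held 528 and 781 UMIs over all cycling LMPP cells, and 18 and 67 over comparison cells. Prg2 and Cma1, genes of eosinophils and mast cells, held 40 and 59 UMIs in cycling LMPP cells and 15 and 63 in comparison cells, so their values come from GMP, where Prg2 averaged 59.7 ± 11.4 CPM in cycling cells against 381 ± 89.5 in comparison cells (SD, n = 3). Car1 turned to -1.22 in cells of 8000 to 20000 UMIs.

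In the other direction stood Klf4 (-2.35), Cd74 (-1.79), Pf4 (-1.71), Wfdc17 (-1.67), Ccl3 (-1.56), H2-Aa (-1.43), Pou2f2 (-1.18) and Klf2 (-1.16). Cd74 in GMP comparison cells held 21.3, 37.2 and 1.05 CPM in replicates 1, 2 and 3, so 1 library lay far below the rest. Pf4 in cycling GMP cells held 24.7, 39.5 and 6.36 CPM. Ccl3 stood at 35.7 ± 7.63 CPM in cycling GMP cells and 44.3 ± 7.77 CPM in GMP comparison cells (SD, n = 3). Pou2f2, which encodes the factor Oct-2, stood at 47.5 against 85.0 CPM in LMPP and 56.6 ± 5.92 against 43.1 ± 9.07 CPM in GMP.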

How the results depend on the processing

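The share of cycling LMPP cells was 26.3% with at least 2 Mki67 UMIs, 16.7% with at least 5, 27.8% without the lymphoid limits, 16.7% at 5000 UMIs per cell and 14.4% (747 cells) with lineage cells left out. The median G2M share was 1.05% without doublet calls, 0.877% and 1.13% with at least 2 and 5 Mki67 UMIs, and 1.13% with lineage cells left out. The 445 higher and 198 lower LMPP genes became 767 and 818 at 1 CPM, 914 and 794 at 1.5-fold, and 6694 and 8 as UMIs per cell, where the median ratio of all genes was 1.29. The lower count was 99 against all other cells and 127 with lineage cells left out.

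Of single genes in LMPP, Elane turned to -0.21 in cells of 8000 to 20000 UMIs. With lineage cells left out, Ly6c2 turned to -0.27, Ctsg to -0.47, Elane to -0.35, Ngp to -0.059, Prss34 to -0.75 and Mcpt8 to -0.17, which the limits bring about for the genes in them. Per cell, Btg2 turned to 0.18, Zfp36 to 0.058, Fos to 0.26, Irf7 to 0.20, Ifitm1 to 0.19 and Klf4 to 0.062, since cycling cells held more UMIs.

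In GMP 2379 genes rose and 2171 fell; the DESeq2 Wald test gave 1143 and 1201, no library block 528 and 547, cells of 8000 to 20000 UMIs 1437 and 1433, thinning 1329 and 1403, and leaving out 1 GMP replicate 1623 to 1967 and 1489 to 1882. Cd74 in GMP turned to 0.041 with DESeq2, 3.58 in cells of 8000 to 20000 UMIs and 0.87 against all other cells, and H2-Ea-ps to 2.81 and 0.71 under the last 2; the cause was not tested.

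For the interaction, larger and smaller differences numbered 1002 and 211 with DESeq2, 311 and 18 with no library block, and 1348 and 732 after thinning. The smaller ones numbered 739 with no low-count filter and 2535 against all other cells. Leaving out 1 GMP replicate gave 2080 to 2362 and 917 to 1052. Car1 turned to -1.22 in cells of 8000 to 20000 UMIs. No paired analysis was possible because LMPP has 1 library and the groups share only the replicate number 1, given in accession order; the library block pairs cells of the same library.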

Other observations

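Some of the cells that the lymphoid limits left out also held at least 3 Mki67 UMIs. They were picked on Mki67, so their values describe them and say nothing of the left-out cells as a group. The 491 LMPP cells with at least 3 Mki67 UMIs and at least 3 of Dntt, the template-independent polymerase of lymphoid progenitors, had a median of 0.588% S phase and 0.745% histone UMIs, and the 213 with at least 2 of Il7r and Ebf1 had 0.499% and 0.797%. Cycling cells with no Dntt UMI numbered 1089 (G2M median 1.01%), and those with exactly 2 numbered 171 (0.908%). In CMP, cells picked by the same rule held 44.3 CPM of Hlf against 108 in CMP comparison cells, 118 against 4.54 CPM of Hmmr and 332 against 154 CPM of Car1.

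One LMPP cell held 12386 UMIs of Igkc.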
